A study of Mus musculus with 10 samples.

Results

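The genes described here are the Wnt ligands, their receptors and the secreted Wnt inhibitors of mouse intestinal organoids, 43 genes of the 47069 in the table. They were chosen by name, as 19 Wnt ligands, 14 receptors (Fzd1 to Fzd10, Lrp5, Lrp6, Ror1 and Ror2) and 10 secreted inhibitors (the Sfrp genes, Frzb, the Dkk genes and Wif1), and all 43 were found. RNA-seq was performed on 10 libraries, labelled as organoids, after 50 days of culture, 2 in each of 5 groups. The organoids carried Lgr5-EGFP-CreERT2 with floxed Ppp2r1a alleles on a strain labelled C57BL/6, and every group, control included, grew in Matrigel with Noggin, EGF and R-spondin 1 (NER medium). The control group received saline. The DMBA group received DMBA, a polycyclic carcinogen, and its label adds the word long. Tamoxifen (TAM) switches on CreERT2 in Lgr5-expressing cells and so starts the deletion of Ppp2r1a (the scaffold subunit of the phosphatase PP2A) in them. It was given in a set labelled short and in a set labelled long, both of which the labels also call Dosage-sensitive. The DMBA+TAM group received both agents. What short, long and Dosage-sensitive stand for, and whether the 2 libraries of a group came from separate mice or cultures, is not given in the sources used here, so p-values measure only the spread between these libraries.

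Wnt proteins are lipid-modified signals that act on neighbouring cells. A Frizzled receptor binds the Wnt together with the co-receptor Lrp5 or Lrp6, which keeps beta-catenin from being degraded and lets it switch on target genes with TCF/LEF factors, whereas Ror1 and Ror2 take up Wnt5a-type signals that do not need beta-catenin. Sfrp proteins and Wif1 bind the Wnt itself outside the cell, and Dkk proteins mostly act by occupying Lrp5 and Lrp6. In the intestine this signal keeps crypt stem cells dividing, and its Wnts come from Paneth cells and from the connective tissue under the crypts.

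Before any member is described, the make-up of the libraries has to be given, because it moved with the groups. The 10 markers of epithelium summed to between 13565 and 23097 normalized CPM (counts scaled to a common library total after TMM correction, used for all levels below unless FPKM is named) in the 8 libraries outside DMBA+TAM, and to 22.9 and 33.3 in the DMBA+TAM libraries, where Epcam was at 1.58 and 1.32 against 2465 and 2574 in control. The 10 fibroblast markers summed to between 736 and 2461 in those 8 libraries and to 32763 and 33688 in DMBA+TAM, and none of them was at 0. The labelled tissue, intestinal epithelium grown as organoids, was thus close to absent by its defining markers from DMBA+TAM. The labels call all 10 libraries organoids, and these values do not settle what material the DMBA+TAM libraries were made from. The other 8 libraries also held markers of fibroblasts, given above, and of smooth muscle, given below, which are not epithelial. The values therefore do not settle the material of those 8 libraries either. The 8 small intestine markers summed to between 15291 and 27616 in control and TAM short, and to between 457 and 1052 in DMBA and TAM long. The 5 colon markers went the other way, with 203 to 312 in control and TAM short and 2840 to 12133 in DMBA and TAM long. The letters S and L in the library titles go with these markers: the titles begin with NS for control, NL for DMBA, DSS_S for TAM short and DSS_L for TAM long, with S beside high small intestine markers and L beside high colon markers. The protocol labels pair S and L with the words short and long in both TAM groups and L with long in DMBA, but carry neither word for control, and what the letters DSS mean in these titles is not given in the sources used here (DSS is also the usual short form of dextran sulfate sodium, which no label names). Groups are those of the protocol labels. Gut segment and treatment therefore cannot be told apart in the comparisons of DMBA or TAM long with control or TAM short. The 6 smooth muscle markers summed to between 1209 and 2280 in control and TAM short, between 7160 and 12836 in DMBA and TAM long and between 1464 and 1605 in DMBA+TAM. Skeletal muscle markers summed to 2.64 in DMBA+TAM replicate 1 and 6028 in replicate 2. Total counts were 8828247 to 10923673 in the 8 libraries and 1592366 and 1915270 in DMBA+TAM, so low members are least precise there. Ppp2r1a was at 123 and 129 normalized CPM in control, 131 to 169 in the single-agent groups and 129 and 133 where both agents were given. Its counts are summed over all exons, also in cells without Cre, so they do not check the deletion. In bulk RNA, fewer cells of a type and less RNA per cell cannot be told apart.

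The 4 promoters shown here belong to the genes with the highest FPKM of their class in DMBA+TAM (Wnt11, then Wnt9a, among ligands and Fzd1 among Frizzled receptors) and to Fzd5, which led the Frizzled receptors in the other groups. Each run is 300 bases of RefSeq sequence on GRCm38.p6, read 5′ to 3′ on the gene's strand, from 250 bases before the start to 50 after it. They lie at chr11:59306680-59306979 (plus strand, Wnt9a), chr7:98834862-98835161 (plus strand, Wnt11), chr5:4758167-4758466 (minus strand, Fzd1) and chr1:64737701-64738000 (minus strand, Fzd5). Capitals mark the TCF/LEF letters CTTTGAT or CTTTGAA on either strand; these share their first letters, so a place on 1 strand matches only 1 of them.
Wnt9a: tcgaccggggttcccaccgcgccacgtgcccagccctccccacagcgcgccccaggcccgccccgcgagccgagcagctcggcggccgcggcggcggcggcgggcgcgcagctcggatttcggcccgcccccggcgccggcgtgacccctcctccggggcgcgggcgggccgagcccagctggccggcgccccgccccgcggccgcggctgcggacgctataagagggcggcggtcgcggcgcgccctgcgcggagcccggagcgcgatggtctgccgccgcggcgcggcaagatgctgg
Wnt11: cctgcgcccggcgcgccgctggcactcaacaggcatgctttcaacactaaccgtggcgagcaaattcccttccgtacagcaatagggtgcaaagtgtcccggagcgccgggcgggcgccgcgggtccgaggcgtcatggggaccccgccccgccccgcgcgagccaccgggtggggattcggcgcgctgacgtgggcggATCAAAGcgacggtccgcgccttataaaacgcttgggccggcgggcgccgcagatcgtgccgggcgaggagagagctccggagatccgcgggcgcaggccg
Fzd1: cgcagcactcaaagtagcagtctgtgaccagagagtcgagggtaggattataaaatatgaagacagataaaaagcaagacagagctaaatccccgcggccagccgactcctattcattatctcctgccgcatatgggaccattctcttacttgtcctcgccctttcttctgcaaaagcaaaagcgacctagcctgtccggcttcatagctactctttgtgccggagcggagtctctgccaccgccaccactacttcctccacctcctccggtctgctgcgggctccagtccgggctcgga
Fzd5: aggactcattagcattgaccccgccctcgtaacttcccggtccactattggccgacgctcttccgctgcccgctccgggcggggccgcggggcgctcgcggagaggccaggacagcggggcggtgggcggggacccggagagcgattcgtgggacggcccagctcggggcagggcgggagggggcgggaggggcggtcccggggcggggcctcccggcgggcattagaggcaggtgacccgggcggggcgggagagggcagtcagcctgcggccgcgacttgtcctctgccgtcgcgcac
Only the Wnt11 window among these 4 held the letters, from base 200, and the window of a second Wnt11 start (chr7:98838595-98838894) did not. Windows were found for 29 of the 43 members, with 32 windows in all, and 3 of these (Wnt11, Wnt5b and Dkk1) held the letters, beside 8.65% of all 32851 windows in the table. The Fzd1 window had a G+C content of 54% with 16 CpG pairs, whereas Fzd5 had 75.7% with 38, Wnt11 71.3% with 45 and Wnt9a 83.3% with 58. A match is a run of letters and not a measured binding site, and a window without one says only that these letters are not in it.

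Position in the genome linked several ligands as neighbours. Wnt9a lies 16.2 kb from Wnt3a and Wnt3 24.3 kb from Wnt9b, both on chromosome 11, Wnt10b lies 11.7 kb from Wnt1 on chromosome 15, and Wnt6 lies 6.2 kb from Wnt10a on chromosome 1. In each pair only the first-named gene passed the filter on low counts. Of the 43 members, 33 passed it: 11 of 19 ligands, all 14 receptors and 8 of 10 inhibitors. Wnt3a, Wnt8a, Wnt8b and Dkk1 had no count in any library. Wnt1, Wnt7a, Wnt7b, Wnt9b and Wnt10a reached at most 3 counts in a library. Dkk4, an Lrp-binding inhibitor, also failed the filter, with 8 and 11 counts in control and at most 1 in each of the other 8 libraries. Exon bases of 6 members are shared with another annotated gene (Wnt5a, Wnt7b, Wnt11, Fzd5, Fzd6 and Sfrp2, in GENCODE M21), and since the use of strand in counting is not given in the sources used here, reads of both cannot be told apart; the longest such stretch is 1233 bases in Fzd5.

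DMBA+TAM was compared with control to ask what went with both agents together after 50 days; treatment and the material of these libraries cannot be told apart here. In DMBA+TAM 24 of the 33 members tested were higher and 4 lower, while 29% of all 16179 genes tested were higher and 35.3% lower (edgeR's quasi-likelihood test, adjusted p under 0.05). The median log2 fold change was 2.14 over the 33 members and -0.17 over all genes. The balance of all genes turned with the scaling: with library size only, 38.7% were higher and 23.2% lower, with a median of 0.31, and limma on log2(FPKM + 1) gave 39.7% and 25.7%. All 8 inhibitors, 10 of 14 receptors and 6 of 11 ligands were higher, with medians of 3.32, 2.08 and 1.74. A member that passed the filter only through the group in which it is high had to differ, so these counts describe the list and support nothing further. Without the DMBA+TAM libraries 5 of the 33 members failed the filter, namely Wnt2, Wnt9a, Wnt10b, Wnt16 and Fzd10, and the values of the 4 ligands among them below are descriptions. Without these 5, 20 of 28 members were higher and 4 lower with a median of 1.99, and the ligands turned from a positive to a negative median, with 2 of 7 higher (Wnt5a and Wnt11), 2 lower and a median of -0.50. As given above, epithelial markers were near 0 and fibroblast markers raised in the same libraries; their part in the results was not tested. Without DMBA+TAM replicate 2, the library with skeletal muscle RNA, 25 of the 28 calls were kept.

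Among the ligands, Wnt9a, a signal of joint formation in the limb, passed the filter only through DMBA+TAM, so its values are a description. It was at 0.905 and 0.964 normalized CPM in control, 0.536 and 0.786 in DMBA, 0.904 and 0.757 in TAM short, 1.04 and 0.786 in TAM long, and 68.6 and 61.7 in DMBA+TAM. The 8 libraries outside DMBA+TAM thus stood close together, far below the 2 others. The log2 fold change was 6.10 (SE 0.27), and its neighbour Wnt3a had no count. Wnt11, which mostly signals without beta-catenin, had 1.36 and 1.20 in control, 1.61 and 0.449 in DMBA, 2.49 and 1.89 in TAM short, 0.949 and 0.295 in TAM long and 43.8 and 38.8 in DMBA+TAM (log2 fold change against control 4.99, SE 0.49, adjusted p = 1.2e-05). Wnt5a, the ligand of Ror2, had 10.2 and 12 in control, 12.4 and 13.4 in DMBA, 12.9 and 10.3 in TAM short, 20.8 and 16.8 in TAM long and 41.7 and 33.0 in DMBA+TAM. It was already detected everywhere, and its rise of 1.74 (SE 0.21, adjusted p = 4.37e-05) was the smallest among the 6 ligands called higher.

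**Figure D1:**
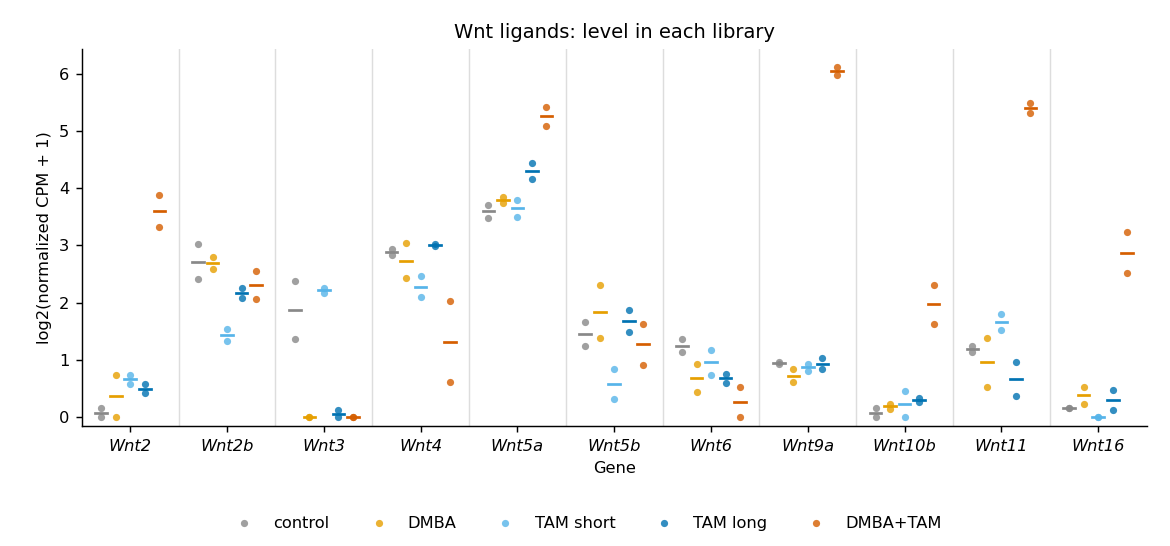
Level of the 11 Wnt ligands that passed the filter, as log2(normalized CPM + 1), with 1 point per library, a bar at the mean of the 2 libraries of a group and colours for the 5 groups. Wnt9a, Wnt11, Wnt2, Wnt10b, Wnt16 and Wnt5a stand highest in DMBA+TAM, whereas Wnt3 is at or near 0 in DMBA, TAM long and DMBA+TAM.

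The other ligands that were higher were close to absent in control, and all 3 passed the filter only through DMBA+TAM. Wnt2, a ligand of the embryonic lung mesenchyme, had 0 and 1 counts in control and 17 and 31 in DMBA+TAM. The ratio was 198 after scaling (95% counting interval 33.8 to 7967). The normalized CPM of Wnt2 were 0 and 0.12 in control, 0 and 0.674 in DMBA, 0.678 and 0.505 in TAM short, 0.345 and 0.491 in TAM long and 8.97 and 13.7 in DMBA+TAM. All 8 libraries outside DMBA+TAM, at 0.678 or less, thus lay far below it. Wnt16, known from bone, had 1 count in each control library and 9 and 19 in DMBA+TAM, a ratio of 57.6 (14.5 to 499). Its normalized CPM were 0.113 and 0.12 in control, 0.179 and 0.449 in DMBA, 0 and 0 in TAM short, 0.0863 and 0.393 in TAM long and 4.75 and 8.37 in DMBA+TAM. Wnt10b, known for holding back fat cell formation, had 0 and 1 counts in control and 4 and 9 in DMBA+TAM, a ratio of 53.5 (8.04 to 2275). Its normalized CPM were 0 and 0.12 in control, 0.179 and 0.112 in DMBA, 0 and 0.379 in TAM short, 0.259 and 0.197 in TAM long and 2.11 and 3.97 in DMBA+TAM. These intervals cover counting error only.

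Wnt3, the Wnt of Paneth cells, and Wnt4, a ligand of kidney and gonad development, went down. Wnt3 had 4.18 and 1.57 normalized CPM in control and 3.50 and 3.79 in TAM short, but no count in DMBA or DMBA+TAM and 1 count in TAM long. With 50 counts in control, it was at least 4.05-fold lower in DMBA+TAM against a floor of 3 counts over the group (adjusted p = 0.0113, and 0.0538 without DMBA+TAM replicate 2). The 6 Paneth cell markers summed to 17279 and 20118 in control, 9654 to 13262 in TAM short, 2191 to 7954 in DMBA, 287 to 919 in TAM long and 19.8 to 28 in DMBA+TAM, and Lyz1 was at 8838 and 7021 in control but 1.07 and 3.37 in DMBA. In DMBA against control 5 of the 6 were lower and 1 was higher, beside 23.3% lower and 24.5% higher of all genes. The higher one, named after its values were seen, was Ang4, with 2081 and 7751 in DMBA and 1318 and 1261 in control, and it made up most of the DMBA sums. Their part in the level of Wnt3 was not tested. Wnt4 had 6.67 and 6.14 in control and 0.528 and 3.08 in DMBA+TAM (log2 fold change -1.74, SE 0.56, adjusted p = 0.0192), and this call rested on few counts: adjusted p was 0.0574 without control replicate 1, 0.113 without DMBA+TAM replicate 1 (log2 fold change -1.08) and 0.0966 with scaling by library size only. Wnt4 had 7.23 and 4.38 in DMBA, 4.52 and 3.28 in TAM short and 7.16 and 6.98 in TAM long. Wnt2b, Wnt5b and Wnt6 were not called in DMBA+TAM against control; Wnt2b and Wnt5b overlapped between the groups, and Wnt6 had 24 counts in control and 1 in DMBA+TAM (adjusted p = 0.0788).

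Among the receptors, the Frizzled genes changed in both directions. Fzd1 had 9.84 and 8.43 normalized CPM in control, 28.2 and 32.5 in DMBA, 7.80 and 5.93 in TAM short, 19.2 and 23.5 in TAM long and 219 and 218 in DMBA+TAM, a log2 fold change of 4.58 in DMBA+TAM against control (SE 0.18, adjusted p = 2.82e-08). Fzd5, the Frizzled that Paneth cells need to mature, did the opposite. It had 157 and 152 in control, 113 and 90.3 in DMBA, 162 and 166 in TAM short, 146 and 147 in TAM long and 12.1 and 18.1 in DMBA+TAM (log2 fold change -3.34, SE 0.19, adjusted p = 2.22e-07). Fzd4, which serves Norrin signalling in blood vessels, had 12.7 and 14.3 in control, 7.41 and 8.42 in DMBA, 3.50 and 2.65 in TAM short, 4.31 and 6.68 in TAM long and 64.9 and 81.1 in DMBA+TAM (log2 fold change 2.44, SE 0.23, adjusted p = 7.71e-06). It was thus lowest in TAM short and highest in DMBA+TAM, with control between them. The 5 endothelial markers summed to 544 and 549 in DMBA+TAM and to between 51.2 and 101 elsewhere; their part in the rise of Fzd4 was not tested.

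**Figure D2:**
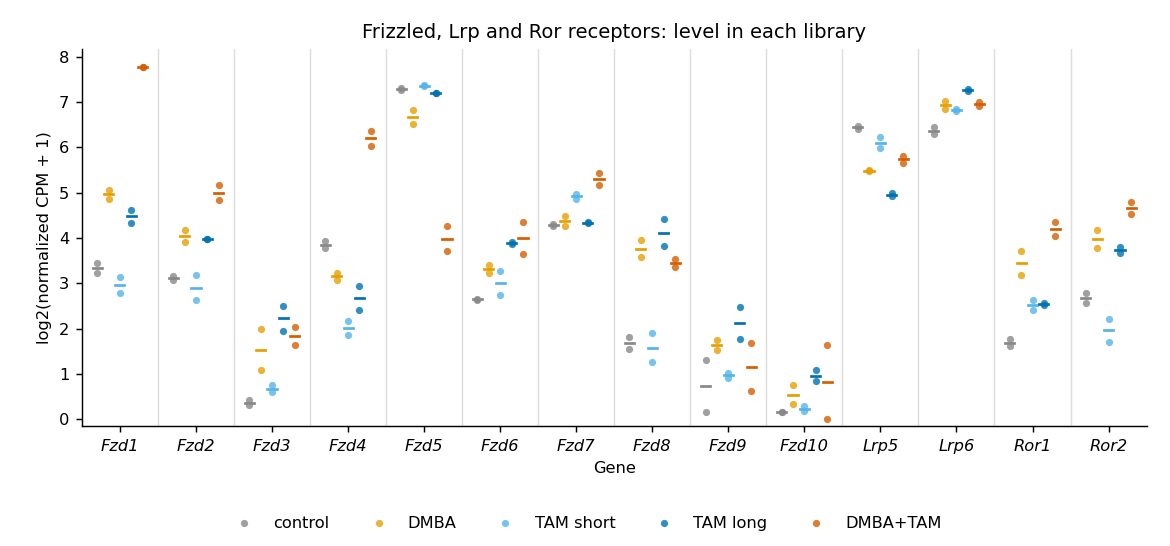
Level of the 14 receptors, as log2(normalized CPM + 1), with 1 point per library, a bar at the mean of each group's 2 libraries and colours for the 5 groups. Fzd1 and Fzd4 are highest in DMBA+TAM, at 218 or more and 64.9 or more normalized CPM, whereas Fzd5 is at 18.1 or less there and at least 90.3 in the other 8 libraries.

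Fzd2, Fzd7, Fzd6, Fzd8 and Fzd3 rose as well. Fzd2 had 7.91 and 7.47 in control, 17.0 and 14.0 in DMBA, 8.02 and 5.17 in TAM short, 14.7 and 14.7 in TAM long and 27.4 and 34.8 in DMBA+TAM (log2 fold change 2.02, SE 0.24). Fzd7, a Frizzled of intestinal stem cells, had 18.9 and 18.1 in control, 21.4 and 18.2 in DMBA, 30.6 and 28.0 in TAM short, 19.0 and 19.4 in TAM long and 42.2 and 34.8 in DMBA+TAM (log2 fold change 1.06, SE 0.16). Fzd6, a planar polarity Frizzled, had 5.31 and 5.18 in control, 9.64 and 8.42 in DMBA, 8.59 and 5.68 in TAM short, 13.6 and 14.0 in TAM long and 19.5 and 11.5 in DMBA+TAM (log2 fold change 1.54, SE 0.30). DMBA+TAM and TAM long overlapped for Fzd6, and both lay above DMBA and TAM short. Fzd8 had 1.92 and 2.53 in control, 14.4 and 10.9 in DMBA, 2.71 and 1.39 in TAM short, 20.4 and 13.1 in TAM long and 10.6 and 9.25 in DMBA+TAM (log2 fold change 2.14, SE 0.41). Fzd3, the other planar polarity Frizzled, had 0.339 and 0.241 in control, 2.95 and 1.12 in DMBA, 0.678 and 0.505 in TAM short, 4.66 and 2.85 in TAM long and 2.11 and 3.08 in DMBA+TAM (log2 fold change 3.11, SE 0.79, adjusted p = 0.00636, and 0.0655 without DMBA+TAM replicate 2). Fzd9 (0.528 and 2.20 in DMBA+TAM, 1.47 and 0.12 in control) and Fzd10 (2.11 and 0 against 0.113 and 0.12) overlapped between the groups.

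The co-receptors Lrp5 and Lrp6 were detected at 29.3 normalized CPM or more in every library. Lrp5 had 88.2 and 84.2 in control, 43.3 and 44.4 in DMBA, 62.5 and 73.9 in TAM short, 30.8 and 29.3 in TAM long and 55.4 and 49.3 in DMBA+TAM (log2 fold change in DMBA+TAM -0.72, SE 0.13, adjusted p = 0.000688). With library size only the value was -0.23 (adjusted p = 0.184), a setting that shifts the median of all genes by 0.48 in this comparison. Lrp6 had 86 and 77.2 in control, 114 and 130 in DMBA, 114 and 110 in TAM short, 150 and 156 in TAM long and 119 and 128 in DMBA+TAM (0.60, SE 0.12, adjusted p = 0.00138). Hence Lrp5 was highest and Lrp6 lowest in control. The Wnt5a receptors Ror1 and Ror2 rose more. Ror1 had 2.04 and 2.41 in control, 8.04 and 12.2 in DMBA, 4.29 and 5.17 in TAM short, 4.74 and 4.91 in TAM long and 19.5 and 15.4 in DMBA+TAM (log2 fold change 2.96, SE 0.32). Ror2 had 5.88 and 4.94 in control, 17.1 and 12.8 in DMBA, 3.62 and 2.27 in TAM short, 11.8 and 12.9 in TAM long and 26.9 and 22 in DMBA+TAM (log2 fold change 2.17, SE 0.27).

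All 8 secreted inhibitors that were tested had higher levels in DMBA+TAM. The other 2 did not pass the filter and were not tested. Dkk4 had 8 and 11 counts in control and 0 and 0 in DMBA+TAM, where total counts were far lower, and Dkk1 had no count. Sfrp2, an Sfrp abundant in fibroblasts, had 1 count in each control library and 119 and 307 in DMBA+TAM. Its normalized CPM were 0.113 and 0.12 in control, 0.893 and 4.27 in DMBA, 0 and 0 in TAM short, 1.04 and 1.77 in TAM long and 62.8 and 135 in DMBA+TAM, a ratio of 877 to control (95% counting interval 241 to 7266, adjusted p = 1.53e-05). Sfrp4, the gene mutated in Pyle disease of bone, had 1 count in control and 154 and 240 in DMBA+TAM. It had 0 and 0.12 normalized CPM in control, 1.34 and 3.03 in DMBA, 0.113 and 0.126 in TAM short, 1.29 and 2.36 in TAM long and 81.3 and 106 in DMBA+TAM, a ratio of 1622 (290 to 64242, adjusted p = 2.87e-07). Wif1, which binds Wnts directly, had 0 and 0.12 in control, 0.804 and 1.24 in DMBA, 0.452 and 0.252 in TAM short, 1.21 and 1.28 in TAM long and 6.86 and 9.69 in DMBA+TAM, a ratio of 144 (24.2 to 5853, adjusted p = 2.62e-05). For all 3 the DMBA and TAM long libraries lay between control and DMBA+TAM.

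Dkk2, an Lrp-binding inhibitor, showed the clearest rise among inhibitors that control already expressed. It had 6.33 and 4.22 in control, 5.89 and 4.27 in DMBA, 3.62 and 2.40 in TAM short, 4.14 and 8.35 in TAM long and 103 and 70.5 in DMBA+TAM (log2 fold change 4.03, SE 0.37, adjusted p = 7.21e-06). Dkk3, the divergent Dkk, had 27.2 and 26.7 in control, 53.2 and 47.7 in DMBA, 18.4 and 14.9 in TAM short, 54.0 and 54.3 in TAM long and 93.4 and 76.2 in DMBA+TAM (1.65, SE 0.15). The order of the groups for Dkk3 was TAM short, control, DMBA, TAM long and DMBA+TAM without overlap, although DMBA and TAM long differed by a log2 value of only 0.10 (SE 0.14, adjusted p = 0.74). Sfrp1 had 33.7 and 29.4 in control, 40.3 and 35.7 in DMBA, 26.3 and 21.1 in TAM short, 27.9 and 36.6 in TAM long and 93.4 and 182 in DMBA+TAM (2.13, SE 0.28). Frzb, another Wnt-binding member of this family, was the exception in order: it had 1.36 and 1.20 in control, 17.3 and 28.0 in DMBA, 1.92 and 1.64 in TAM short, 8.63 and 12.9 in TAM long and 5.28 and 4.85 in DMBA+TAM (log2 fold change against control 1.96, SE 0.46, adjusted p = 0.00411). Frzb was thus above control in DMBA+TAM but below DMBA and TAM long. Sfrp5 had 1.36 and 0.602 in control, 1.61 and 1.01 in DMBA, 0.226 and 0.505 in TAM short, 0.259 and 0.295 in TAM long and 2.64 and 9.25 in DMBA+TAM. The log2 fold change of Sfrp5 to control, 2.61 (SE 0.67, adjusted p = 0.00668), moved to 1.38 without DMBA+TAM replicate 2 (adjusted p = 0.208), and adjusted p was 0.0616 without control replicate 2.

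**Figure D3:**
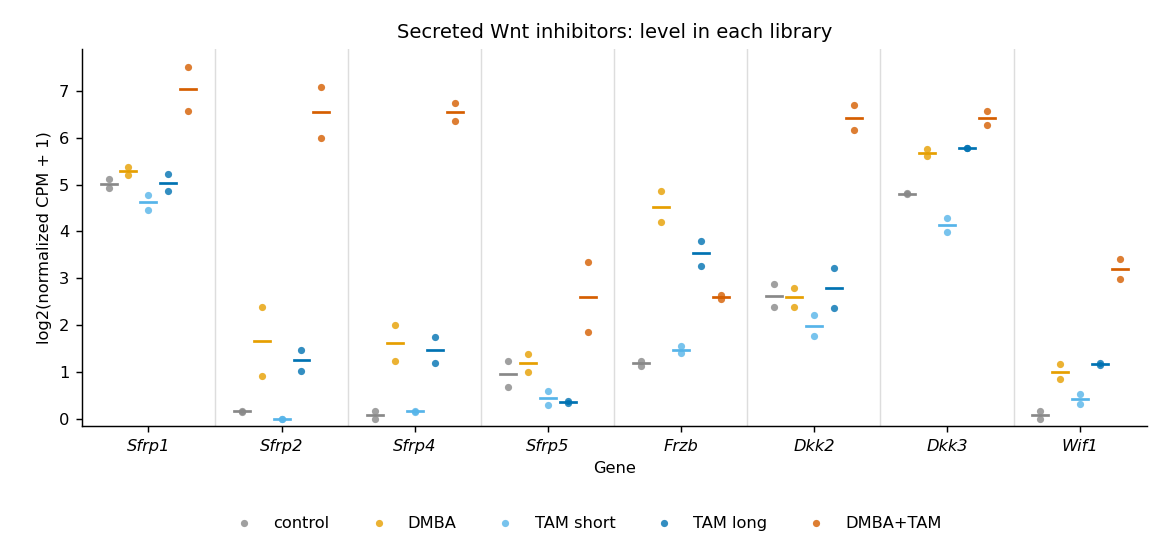
Level of the 8 secreted inhibitors that passed the filter, as log2(normalized CPM + 1), with 1 point per library, a bar at the mean of each group's 2 libraries and colours for the 5 groups. Sfrp2, Sfrp4 and Dkk2 are at 62.8 or more normalized CPM in DMBA+TAM and at 8.35 or less in the other 8 libraries, whereas Frzb is highest in DMBA.

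The make-up of each class, taken per gene length as the share of the class's summed FPKM in a library, changed accordingly. Summed FPKM of the ligands was 8.84 to 15.8 in the 8 libraries and 88.5 and 85 in DMBA+TAM. Wnt5a led the ligands in those 8 libraries with 33.5% to 60.9%, followed mostly by Wnt2b, Wnt4, Wnt3 or Wnt11. In DMBA+TAM, Wnt11 held 32.3% and 29.6%, Wnt9a 27.8% and 25.9% and Wnt5a 24.4% and 20.1%. The lengths behind the deposited FPKM were shorter than the listed gene lengths for several members, and by listed length Wnt9a came first in DMBA+TAM and Wnt2b in control replicate 1. Among the 10 Frizzled genes, Fzd5 held 42.5% to 73.5% in the 8 libraries, while Fzd1 held 52.7% and 50.6% and Fzd4 17.8% and 21.4% in DMBA+TAM. The Fzd5 share was 68% to 73.5% in control and TAM short and 42.5% to 53% in DMBA and TAM long, without overlap. Fzd1 in DMBA and Fzd1 or Fzd8 in TAM long took second place. Among inhibitors, Dkk3 or Sfrp1 led in the 8 libraries and Sfrp2 in DMBA+TAM, with 32.5% and 46.6%, ahead of Sfrp4 with 23.9% and 20.6%. By listed length Sfrp4 led in DMBA+TAM replicate 1. Summed FPKM of the inhibitors was 10.1 to 43.5 in the 8 libraries and 231 and 346 in DMBA+TAM, and that of the Frizzled genes was 37.6 to 60.1 against 117 and 122. The shares are given as a description, with no test.

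**Figure D4:**
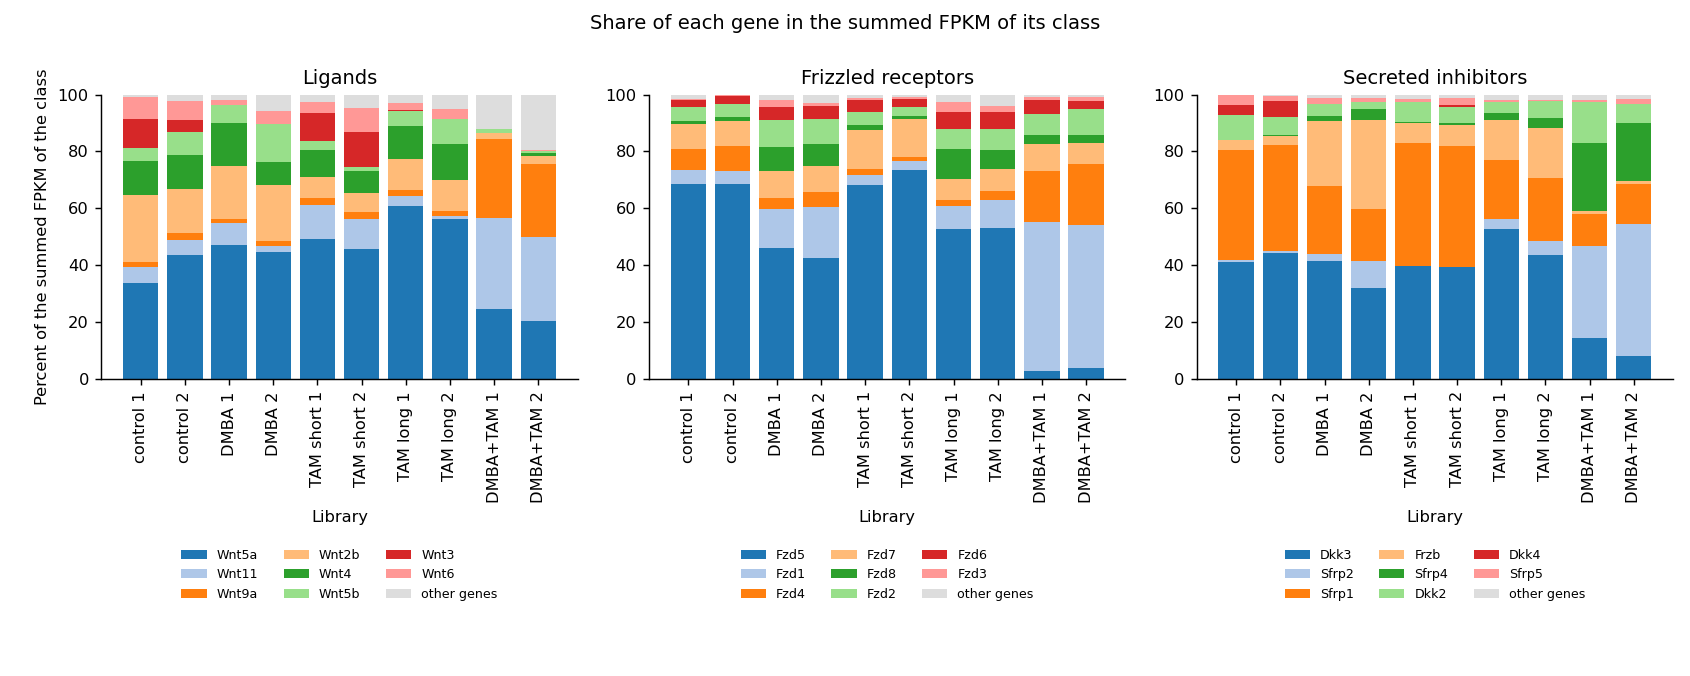
Percent of the summed FPKM of the ligands, the Frizzled receptors and the secreted inhibitors held by each gene in each of the 10 libraries; the 8 genes with the highest share in any library are coloured and the rest are grey. Wnt5a, Fzd5 and Dkk3 or Sfrp1 lead in the first 8 libraries, and Wnt11, Fzd1 and Sfrp2 lead in the DMBA+TAM libraries.

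DMBA+TAM was also compared with each single-agent group. These comparisons share the DMBA+TAM libraries, so they are not independent of the one above. As given above, epithelial markers were near 0 and fibroblast markers raised in these libraries. Treatment and material therefore cannot be told apart in any of these 3 comparisons. Against DMBA, 20 members were higher and 3 lower (Frzb, Wnt4 and Fzd5). Beside this, 25.2% and 29.9% of all genes were called (29.3% and 24.2% with library size only). Against TAM long, 20 were higher and 4 lower (Frzb, Lrp6, Wnt4 and Fzd5), beside 25.3% and 29.9% of all genes (28.8% and 24.3%). Against TAM short, 23 were higher and 3 lower (Wnt3, Lrp5 and Fzd5), beside 29.3% and 33.8%, or 37.2% and 23.3% of all genes with library size only. Without the 5 members that needed DMBA+TAM to pass the filter, 16, 16 and 19 of 28 were higher. In that order of comparisons, Wnt9a had log2 fold changes of 6.61, 6.13 and 6.26, Wnt11 5.25, 5.98 and 4.22, and Fzd1 2.85, 3.35 and 4.98. Fzd4 had 3.21, 3.74 and 4.56, Dkk2 4.08, 3.80 and 4.83, and Fzd5 -2.73, -3.26 and -3.42. The values of Wnt9a are descriptions, as given above, and each of the 15 others passed the test, with adjusted p from 2.19e-08 to 2.76e-05. Frzb was 2.16 lower than DMBA on the log2 scale (SE 0.36, adjusted p = 0.000593), at -1.08 against TAM long (SE 0.37, adjusted p = 0.0301) and 1.49 higher than TAM short (SE 0.44, adjusted p = 0.0145). The TAM long call of Frzb was lost without TAM long replicate 2 (adjusted p = 0.135), DMBA+TAM replicate 1 (0.0915) or replicate 2 (0.139), and the TAM short call without TAM short replicate 2 (0.0558), DMBA+TAM replicate 1 (0.0695) or replicate 2 (0.0598). Wnt4 lost its call against DMBA without DMBA replicate 1 (0.122) or DMBA+TAM replicate 1 (0.185) and against TAM long without DMBA+TAM replicate 1 (0.0933). Lrp6 lost its call without any 1 of the 4 libraries (0.074 to 0.176). Lrp5 (-0.38 against TAM short) lost its call without TAM short replicate 2 (0.147) or DMBA+TAM replicate 2 (0.114), and its direction turned, to 0.02, with library size only. Among all members, calls of Frzb, Ror1, Ror2, Fzd3, Fzd6, Wnt2b, Wnt4, Wnt10b, Sfrp5, Lrp5 and Lrp6, were lost in at least 1 of these 3 comparisons when 1 library was left out.

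The libraries labelled DMBA were compared with control to ask what the carcinogen gave without tamoxifen; as given above, gut segment and treatment cannot be told apart here. Of the 33 members, 13 were higher and 4 lower in DMBA, beside 24.5% and 23.3% of all genes, a balance that became 34.5% and 14% with library size only. Both shares of all genes in the main fit were lower when any 1 library was left out. The higher ones were 8 receptors and 5 inhibitors, and among ligands Wnt3 alone was called, with no count in DMBA and 50 in control (at least 19.5-fold lower, adjusted p = 0.00156). Frzb rose most clearly, by 4.12 on the log2 scale (SE 0.35, adjusted p = 1.43e-05), followed among well-counted genes by Fzd8 (2.50, SE 0.35), Ror1 (2.18, SE 0.29), Fzd1 (1.73, SE 0.17) and Ror2 (1.47, SE 0.25). Smaller rises were called for Fzd2 (1.01), Dkk3 (0.90), Fzd6 (0.78) and Lrp6 (0.58), and at low counts for Fzd3, Sfrp2, Sfrp4 and Wif1. Lrp5 fell by 0.98 (SE 0.12, adjusted p = 0.000146), Fzd4 by 0.77 (SE 0.23) and Fzd5 by 0.61 (SE 0.15). With library size only, adjusted p was 0.115 for Fzd4 and 0.206 for Fzd5. With 1 library left out, calls were lost for Fzd3 (without control replicate 2, adjusted p = 0.0632, or DMBA replicate 1, 0.0752), Fzd4 (without control replicate 2, 0.106, or DMBA replicate 1, 0.0758), Fzd6 (without control replicate 1, 0.139, control replicate 2, 0.157, or DMBA replicate 1, 0.15) and Sfrp2 (without control replicate 1, 0.108, control replicate 2, 0.103, or DMBA replicate 2, 0.106). As given above, small intestine markers were lower and colon and smooth muscle markers higher in DMBA than in control. Markers of niche fibroblasts (4 of 6) and of enteric neurons and glia (4 of 6) were also higher, and 0 lower. Of the 10 fibroblast markers, 8 were higher and 1 lower. The part of these markers in the calls was not tested.

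TAM long was compared with control as well, and small intestine markers were again lower and colon markers higher than in control. Markers of smooth muscle (6 of 6), niche fibroblasts (4 of 6), enteric neurons and glia (3 of 6) and endothelium (2 of 5) were also higher, and 0 lower. Of the 10 fibroblast markers, 5 were higher and 2 lower. Paneth cell markers were lower for 5 of 6, and 0 were higher. The part of these markers in the calls below was not tested. In TAM long 15 members were higher and 3 lower, beside 23.2% and 22.8% of all genes (34.2% and 13.3% with library size only). The 15 include Fzd10, which failed the filter without the TAM long libraries, so its call is a description and supports nothing further. Without any 1 library both shares of all genes were lower. The control libraries are those of the DMBA comparison. Fzd8 rose by 2.91 on the log2 scale (SE 0.35, adjusted p = 0.000129), Frzb by 3.05 (SE 0.35, adjusted p = 0.000108), Fzd3 by 3.62 (SE 0.64, adjusted p = 0.00136), Fzd6 by 1.39 (SE 0.27), Fzd1 by 1.22 (SE 0.17), Ror2 by 1.19 (SE 0.25), Dkk3 by 1.00 (SE 0.14) and Lrp6 by 0.91 (SE 0.12). Lrp5 fell by 1.52 (SE 0.12, adjusted p = 1.02e-05) and Fzd4 by 1.30 (SE 0.24). Wnt3 had 1 count against 50, a ratio of 63.5 (95% counting interval 10.9 to 2557). Wif1 and Sfrp4 rose from 1 count to 27 and 39. The remaining calls were lost in the following fits without 1 library. Wnt5a moved from 0.76 on the log2 scale to 0.64 without control replicate 1 and 0.59 without TAM long replicate 1. Ror1 moved from 1.12 to 0.99, 1.23 and 1.08 without control replicate 1, control replicate 2 and TAM long replicate 2. Fzd2 moved from 0.93 to 0.88 without control replicate 2. Fzd9 moved from 2.07 to 1.21, 2.46 and 1.56 without control replicate 2, TAM long replicate 1 and TAM long replicate 2. Fzd10, which failed the filter without the TAM long group, moved from 2.88 to between 2.59 and 3.09 without any 1 of the 4 libraries. Fzd9 had 2.42 and 4.52 normalized CPM in TAM long, 1.88 and 2.36 in DMBA and 1.02 and 0.883 in TAM short, and Fzd10 1.12 and 0.786, 0.268 and 0.674, and 0.226 and 0.126.

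TAM short compared with control gave 3 members higher and 3 lower, beside 6.52% and 7.8% of all genes. These shares of all genes fell to between 1.8% and 2.86% higher and between 2.12% and 3.41% lower without 1 library, and were 16% and 15% when only these groups were fitted. Small intestine markers summed to 15291 and 16413 in TAM short and 26523 and 27616 in control, with 5 of the 8 lower and 1 higher, and their part in these calls was not tested. Fzd4 fell by 2.12 on the log2 scale (SE 0.26, adjusted p = 0.000718), and this was the 1 call kept without each library in turn. Wnt2b, a Wnt of intestinal connective tissue, had 7.12 and 4.34 in control, 1.92 and 1.51 in TAM short, 5.00 and 5.95 in DMBA, 3.80 and 3.24 in TAM long and 3.17 and 4.85 in DMBA+TAM (log2 fold change in TAM short -1.73, SE 0.36, adjusted p = 0.0119). Dkk3 fell by 0.69 (SE 0.15, adjusted p = 0.0136), while Fzd7 rose by 0.67 (SE 0.15, adjusted p = 0.0166), Lrp6 by 0.46 (SE 0.11, adjusted p = 0.0265) and Ror1 by 1.09 (SE 0.31, adjusted p = 0.0451). Without 1 library the adjusted p of Wnt2b was 0.112 (control replicate 1), 0.0638 (TAM short replicate 1) or 0.125 (TAM short replicate 2), and that of Dkk3 0.0896 (control replicate 1), 0.0857 (control replicate 2) or 0.154 (TAM short replicate 2). Fzd7 (0.0753 to 0.118), Lrp6 (0.0765 to 0.194) and Ror1 (0.103 to 0.237) lost their calls without any 1 of the 4 libraries. Fibroblast markers summed to 736 and 886 in TAM short and 1410 and 1549 in control, and their part in the lower Wnt2b and Dkk3 was not tested.

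**Figure D5:**
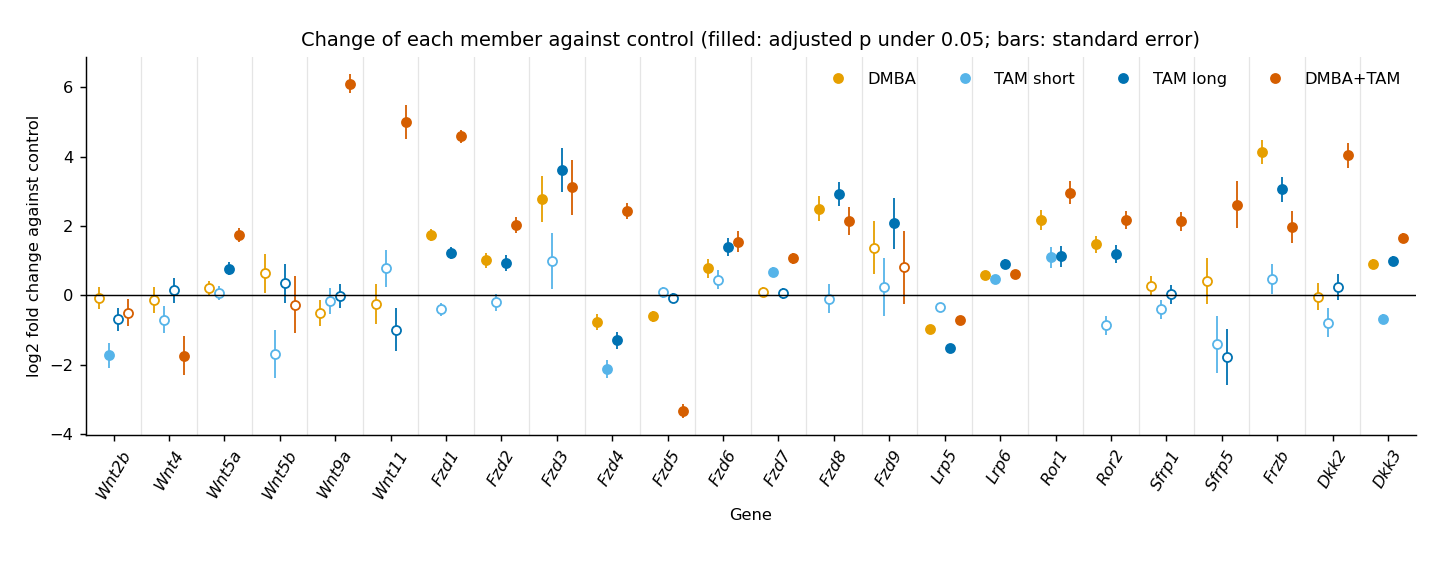
Fitted log2 fold change of each of the 4 treated groups against the same control libraries for the 24 members with more than 3 counts in every group; bars are standard errors and filled points passed the test at an adjusted p under 0.05. Fzd4 is below 0 in all 3 single-agent groups and at 2.44 in DMBA+TAM, and Fzd5 reaches -3.34 in DMBA+TAM.

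TAM long and DMBA, both labelled long, were compared directly. Here 1 member was lower in TAM long (Lrp5, log2 fold change -0.54, SE 0.12, adjusted p = 0.0486) and 0 were higher, beside 1.46% and 1.24% of all genes. At an unadjusted p under 0.05 there were 4 higher and 5 lower, counts with no share of all genes to set them against, so nothing is read from them. DESeq2 called 1 higher, beside 3.07% higher of all genes. The Lrp5 call was lost without any 1 of the 4 libraries (adjusted p 0.0565 without DMBA replicate 1, 0.101 without DMBA replicate 2, 0.241 without TAM long replicate 1 and 0.229 without TAM long replicate 2). The comparison of TAM long with TAM short was added after the data were seen. It gave 16 members higher and 4 lower in TAM long, beside 22% and 20.3% of all genes (29.3% and 12.6% with library size only). Both shares of all genes in the main fit fell when any 1 library was left out. Fzd8 (log2 fold change 3.01, SE 0.35), Frzb (2.58, SE 0.34), Ror2 (2.05, SE 0.27), Dkk3 (1.70, SE 0.15) and Fzd1 (1.63, SE 0.17) were among the higher, and Lrp5 (-1.18, SE 0.12) and Wnt3 (1 count against 61, a ratio of 79.2, 95% counting interval 13.7 to 3177) among the lower. Leaving out TAM short replicate 2 kept 10 of the 20 calls, TAM short replicate 1 or TAM long replicate 2 kept 12, and TAM long replicate 1 kept 14. The 2 TAM groups differ in segment markers as given above, so segment and the labels short and long cannot be told apart. Markers of fibroblasts (9 of 10), smooth muscle (6 of 6), niche fibroblasts (5 of 6), endothelium (4 of 5) and enteric neurons and glia (4 of 6) were also higher in TAM long, and 0 lower. Those of Paneth cells (5 of 6) and immune cells (3 of 5) were lower, and 0 higher. The part of these markers in the calls was not tested.

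The rest of the pathway was read from lists of genes. Of 14 genes for Wnt secretion and surface control, 12 were tested. Against control, DMBA+TAM had 7 of them higher and 1 lower (beside 29% and 35.3% of all genes), with a median log2 fold change of 2.76 beside -0.17 for all genes. Wls, the carrier that every cell needs to release Wnts, had 41.4 and 32.0 normalized CPM in control, 133 and 163 in DMBA, 44.7 and 49.8 in TAM short, 123 and 151 in TAM long and 234 and 245 in DMBA+TAM (log2 fold change 2.71, SE 0.17, adjusted p = 5.87e-07). Gpc3, a glypican that binds Wnts, had 2.94 and 2.77 in control and 69.7 and 104 in DMBA+TAM (4.92, SE 0.37). Cthrc1, a secreted cofactor of Wnt and Frizzled, had 1 and 0 counts in control and 276 and 381 in DMBA+TAM. Rnf43, the ligase that removes Frizzled receptors, had 19.9 and 19.4 normalized CPM in control, 14.6 to 26.4 in DMBA and both TAM groups and no count in DMBA+TAM. In the same list 7 genes were higher and 0 lower in DMBA against control (24.5% and 23.3% of all genes), 7 higher and 1 lower in TAM long (23.2% and 22.8%), and 1 higher and 0 lower in TAM short (6.52% and 7.8%).

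Of 15 genes of the cytoplasm and nucleus, DMBA+TAM had 3 higher and 4 lower when set against control, beside the 29% and 35.3% of all genes, so the share called was below that of all genes. Ctnnb1, which encodes beta-catenin, had 943 and 928 in control, 733 and 730 in DMBA, 1255 and 1266 in TAM short, 1076 and 1059 in TAM long and 552 and 579 in DMBA+TAM (log2 fold change -0.73, SE 0.12, adjusted p = 0.000338, but -0.23 and 0.119 with library size only). Tcf7l2, the main TCF factor of gut epithelium, fell by 1.13 (SE 0.14) and Gsk3a, a kinase that marks beta-catenin for degradation, by 1.28 (SE 0.13), while Tcf7l1 rose by 1.88 (SE 0.49) and Dvl2, which relays the signal from Frizzled, by 0.95 (SE 0.30). Of 16 target genes, some of which stand in the other lists too, 15 were tested, and 3 were higher and 6 lower, a share near that of all genes (29% and 35.3%). Axin2, a feedback inhibitor and widely used reporter of beta-catenin signalling, had 31.4 and 25.4 in control, 18.5 and 13.7 in DMBA, 59.4 and 64.7 in TAM short, 12.3 and 13.1 in TAM long and 8.97 and 7.93 in DMBA+TAM (DMBA+TAM: log2 fold change -1.75, SE 0.23, adjusted p = 7.9e-05; TAM short: 1.13, SE 0.17, adjusted p = 0.00227). It was thus highest in TAM short and lowest in DMBA+TAM, where the ligands and the secreted inhibitors both had their highest summed FPKM. Part of that ligand sum came from Wnt9a, Wnt2, Wnt10b and Wnt16, which passed the filter only through DMBA+TAM. Lgr5, the stem cell receptor for R-spondin, had 7.80 and 5.18 in control and 21.1 and 11.5 in DMBA+TAM (log2 fold change 1.31, SE 0.38, adjusted p = 0.0117). Cd44, a surface glycoprotein, and Ephb3, which positions crypt cells, rose by 2.32 (SE 0.22) and 1.70 (SE 0.18), while Sp5 had 3.05 and 6.38 in control and 0.528 and 0.441 in DMBA+TAM (1 count in each; adjusted p = 0.0243, and 0.0583 with library size only).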

How the data were processed

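Poly-A RNA of 10 libraries labelled as intestinal organoids was sequenced. TopHat alignment, HTSeq counting per gene and FPKM were run by the authors, and the submitters' processing notes name GRCm38.p6. The deposited table holds raw counts, FPKM and a gene length of each of 47069 genes. FPKM imply a length that equals the listed one for 46.9% of genes and is shorter for others, so shares within a class were also computed per listed length. Of 47074 lines, 5 were split parts and were joined, among them that of Wnt5a. Columns with the authors' own comparisons (adjusted p-values and fold changes) were not used.

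The test on counts was that of edgeR 4.0.16 under R 4.3.3 (genes kept by filterByExpr with the groups, TMM scaling, quasi-likelihood fit of 5 group means over all 10 libraries, Benjamini-Hochberg adjustment over 16179 genes, threshold 0.05). Normalized CPM use TMM totals. A group with no count was set to a floor of 3 counts summed over the group; one with 1 to 3 counts is given as a ratio with an exact 95% counting interval. PCR duplicates could not be told apart, so these cover counting error only. In 8 planned comparisons and 1 added later, alternatives were DESeq2 1.42.0, library size only, no filter, only the groups compared, a replicate block, counts thinned to 1592366 (seed 11), limma 3.58.1 on log2(FPKM + 1) or log2(FPKM + 0.1), and leaving out each library. The steps were tested on simulated data. Tables were made in pandas 2.3.3 with NumPy 2.4.6 (Python 3.11.15), and figures in matplotlib 3.10.9. Genes were placed with GENCODE M21, and promoters come from RefSeq.

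The members and lists were chosen with earlier results of these data known. Values in every library are given for each member that passed the filter and was called in DMBA+TAM, DMBA, TAM long or TAM short against control. From each pathway list the 2 largest and 2 smallest called changes in DMBA+TAM against control are named, with Axin2, Ctnnb1, Lgr5, Epcam, Col1a1 and Lyz1 in any case. Groups were taken from the protocol in each library's label. Marker lists cover epithelium, Paneth cells, fibroblasts, niche fibroblasts, smooth muscle, endothelium, immune cells, enteric neurons and glia, fat cells, skeletal muscle, small intestine and colon.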

Additional observations from a re-analysis of the deposited data

Results flagged for a closer look

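The sets labelled TAM long and TAM short differed for 20 members, with 16 higher and 4 lower in TAM long. Control and TAM short had high small intestine markers and TAM long high colon markers, so this is not read as an effect of tamoxifen. The test was TAM long against TAM short, added after the data were seen (edgeR's quasi-likelihood test, adjusted p under 0.05). Beside this, 22% of all genes were higher and 20.3% lower, or 29.3% and 12.6% with library size only. As given above, some of the 20 calls were lost when any 1 library was left out. Dkk3 was the member called in opposite directions: it was higher than control in TAM long and lower in TAM short, and the difference was 1.70 on the log2 scale (SE 0.15, adjusted p = 2.79e-05), with both TAM long libraries (54.0 and 54.3 normalized CPM) above both control libraries (27.2 and 26.7) and both TAM short libraries (18.4 and 14.9) below them. The TAM short call of Dkk3 against control (-0.69, adjusted p = 0.0136) was lost without control replicate 1 (0.0896), control replicate 2 (0.0857) or TAM short replicate 2 (0.154), with limma on log2(FPKM + 1) (0.0926) or log2(FPKM + 0.1) (0.076) and with thinned counts (0.146). Segment and label cannot be told apart here. As given above, fibroblast and smooth muscle markers were also higher in TAM long than in TAM short, and their part was not tested.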

How the results depend on the processing

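With 2 libraries a group, and 1592366 and 1915270 counts in DMBA+TAM, low members limit most comparisons. Replicate numbers did not pair the libraries (correlations of deviations -0.041 to 0.26 over 10 pairs of groups). The replicate block moved the count lower in TAM long than DMBA from 1 to 0, beside 1.51% of all genes. Of all called values it lost 1 with DMBA+TAM and 6 without. Library size only gave 2 members lower in DMBA+TAM against control, 2 in DMBA against control, 2 in TAM long against TAM short and 0 in TAM long against DMBA, beside 23.2%, 14%, 12.6% and 1.06% of all genes. It moved Lrp5 in DMBA+TAM against TAM short from -0.38 to 0.02, as did limma on either FPKM scale (0.02). Limma on either scale gave 2 lower in DMBA against control, 1 higher in TAM short against control, 0 lower in TAM long against DMBA and 2 lower in TAM long against TAM short. In that order, the shares of all genes were 13.4%, 6.54%, 0.89% and 11.7% on log2(FPKM + 1). On log2(FPKM + 0.1) they were 12.8%, 6.21%, 0.643% and 11%. Thinned counts gave 2 lower in DMBA+TAM against control (33.3% of all genes), 1 against TAM short (31.8%) and 2 lower in DMBA against control (18.5%). They gave 8 higher and 1 lower in TAM long against control (17.2% and 17.7%). For TAM short against control they gave 1 higher and 1 lower (4.36% and 5.4%). In TAM long they gave 0 lower against DMBA (0.92%), and 8 higher and 1 lower against TAM short (15.9% and 15.1%). Without the filter there were 5 lower in TAM short against control (6.8% of all genes), and 1 higher and 3 lower in TAM long against DMBA (2.6% and 3.52%). DESeq2 gave 2 lower in DMBA+TAM against TAM long (23% of all genes) and 1 higher in TAM long against DMBA (3.07%). The fit of only the groups compared gave 0 lower in TAM long against DMBA (0.142%). The cause of these changes was not tested, beyond fewer counts in the thinned libraries.

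Leaving out 1 library gave, for DMBA+TAM, 23 to 25 higher and 3 to 4 lower against control, 17 to 18 and 2 to 3 against DMBA, 19 and 1 to 3 against TAM long, and 19 to 21 and 2 to 3 against TAM short. It gave 10 to 12 higher and 3 to 5 lower for DMBA against control, 11 to 12 and 3 for TAM long against control, 0 and 1 to 2 for TAM short against control, 0 to 1 and 0 to 2 for TAM long against DMBA, and 7 to 11 and 2 to 4 for TAM long against TAM short. Of 163 called member values, those with DMBA+TAM kept their call in 358 and lost it in 46 such fits, and the others kept it in 171 and lost it in 77, with no change of direction. In DMBA+TAM against control, 23 of 28 calls held under every alternative that gave a value. Those of Wnt3, Wnt4, Fzd3, Sfrp5 and Lrp5 did not. With 1 library left out, the shares of all genes called higher and lower were also below those of the main fit. The exception was TAM long against DMBA, where both shares moved up or down with the library left out. The counts of members in these fits are therefore a description, and nothing further is read from them.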

Other observations

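Niche fibroblasts under the crypts, marked by a list of 6 genes (Foxl1, Gli1, Foxf1, Foxf2, Grem1 and Rspo3), summed to 103 and 114 normalized CPM in control, 65.2 and 78.7 where both agents were given, 120 and 189 in DMBA, 71 and 106 in TAM short and 119 and 214 in TAM long. In DMBA+TAM against control, 1 of the 6 was higher and 4 lower, while 9 of the 10 general fibroblast markers were higher, beside 29% higher and 35.3% lower of all genes, with Col1a1 at 7554 and 8323 normalized CPM against 231 and 190. Fat cell markers (4 genes) summed to 493 and 952 in DMBA+TAM and 6.68 to 157 elsewhere, immune markers (5 genes) to 727 and 795 against 48 to 142 (3 of the 5 higher and 1 lower than control), and enteric neuron and glia markers (6 genes) to 63 and 69.7 against 8.45 to 49.3. Among the immune markers, the T cell gene Cd3e, named after its values were seen, had no count in DMBA+TAM and 5.31 and 8.19 in control. Their part in the levels of the Wnt genes was not tested.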
